A study of Mus musculus with 12 samples.

Results

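The proteasome genes of resting splenic B cells and naive CD4+ T cells were examined in RNA sequencing libraries. They were taken by name as all genes whose symbol starts with Psma, Psmb, Psmc, Psmd, Psme, Psmf or Psmg, leaving out 3 pseudogenes named with -ps, which gave 50 of 41128 genes in the deposited table. The symbols cover the parts of the complex and its helpers, namely the alpha ring (7 genes), the structural beta subunits (4), the constitutive catalytic subunits (3), the immunoproteasome catalytic subunits (3), the base ATPases (6), the other base and lid subunits (11), assembly chaperones of the regulatory particle (3) and of the core (4), activators (5), an inhibitor (1) and tissue-restricted core subunits (2). The remaining gene, Psmc3ip, carries the name of a proteasome ATPase as its interaction partner but acts in meiotic recombination and is no proteasome subunit. The mice were C57BL/6J, 6 to 8 weeks old, and their spleen cells gave 12 libraries that formed 4 groups of 3, namely CD43- resting B cells from females, the same cells from males, CD4+CD62L+ naive T cells from females and the same cells from males. The labels name no engineered allele and no treatment for any group. Replicates were described as pooled mice, and p-values therefore rest on the variation from pool to pool. T cells were enriched on beads and then sorted as CD62L high, CD44 low and CD25-, whereas B cells were selected for lack of CD43, so that the cell type and its purification cannot be told apart.

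The proteasome is a barrel-shaped protease that degrades proteins tagged with ubiquitin. Outer rings of alpha subunits gate the entry, and inner rings of beta subunits hold the catalytic sites. In cells of the immune system and after exposure to interferon gamma, the constitutive catalytic subunits encoded by Psmb6, Psmb7 and Psmb5 (beta1, beta2 and beta5) can be replaced during assembly by Psmb9, Psmb10 and Psmb8 (beta1i, beta2i and beta5i), which gives the immunoproteasome and changes the peptides made for presentation by MHC class I. A regulatory particle of ATPases and other subunits recognises and unfolds substrates, while the PA28 activators (Psme1 with Psme2 in the cytoplasm, Psme3 in the nucleus) and PA200 (Psme4) can dock on the barrel in its place.

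Promoter sequences are shown for the catalytic subunits of the beta5 and beta1 positions and for a PA28 activator of either kind. These are among the genes on which the results below turn, and only promoters with a match are shown. The sequences were taken from RefSeq (GRCm38.p6), each with 250 bases before and 50 bases after the transcription start, and are written 5′ to 3′ on the strand of the gene. Of the 50 genes, 42 matched a promoter by symbol, with 45 promoters in all. Capitals mark the motif found in each. In the promoter of Psmb5 (chr14:54617946-54618245, minus strand) and of Psmb6 (chr11:70525107-70525406, plus strand) it is TGACNNNGC, the core of the antioxidant response element, which the transcription factor encoded by Nfe2l1 binds at proteasome genes. In Psmb8 (chr17:34197945-34198244, plus strand) it is TTCNNNGAA, the core of the interferon gamma activated site, and in Psme1 (chr14:55578244-55578543, plus strand) it is the core of the interferon response element, which holds GAAA repeated after a gap. In Psmb9 (chr17:34187281-34187580, minus strand) and in Psme3 (chr11:101315963-101316262, plus strand) it is CCAAT, the box of the factor NF-Y.
Psmb5: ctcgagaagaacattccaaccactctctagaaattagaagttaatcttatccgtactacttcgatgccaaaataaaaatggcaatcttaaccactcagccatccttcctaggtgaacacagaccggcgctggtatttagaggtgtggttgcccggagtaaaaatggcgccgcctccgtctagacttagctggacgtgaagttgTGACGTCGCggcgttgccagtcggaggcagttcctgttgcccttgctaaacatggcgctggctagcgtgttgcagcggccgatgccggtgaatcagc
Psmb8: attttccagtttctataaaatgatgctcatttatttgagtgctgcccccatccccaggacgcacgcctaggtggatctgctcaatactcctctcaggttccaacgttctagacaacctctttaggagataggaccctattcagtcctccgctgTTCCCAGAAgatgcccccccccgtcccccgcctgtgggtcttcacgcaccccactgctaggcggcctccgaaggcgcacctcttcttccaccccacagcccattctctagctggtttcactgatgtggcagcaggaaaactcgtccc
Psmb6: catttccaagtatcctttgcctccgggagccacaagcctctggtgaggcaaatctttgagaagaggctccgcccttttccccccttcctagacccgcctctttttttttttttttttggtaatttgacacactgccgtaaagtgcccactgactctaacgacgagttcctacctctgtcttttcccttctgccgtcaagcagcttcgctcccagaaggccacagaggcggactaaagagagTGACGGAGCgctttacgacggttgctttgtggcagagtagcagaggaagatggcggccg
Psmb9: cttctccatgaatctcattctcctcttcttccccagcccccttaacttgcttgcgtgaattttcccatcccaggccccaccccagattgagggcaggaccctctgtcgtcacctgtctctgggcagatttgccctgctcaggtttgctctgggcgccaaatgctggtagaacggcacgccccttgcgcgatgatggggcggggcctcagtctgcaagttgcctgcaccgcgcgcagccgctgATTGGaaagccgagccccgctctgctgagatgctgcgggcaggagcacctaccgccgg
Psme1: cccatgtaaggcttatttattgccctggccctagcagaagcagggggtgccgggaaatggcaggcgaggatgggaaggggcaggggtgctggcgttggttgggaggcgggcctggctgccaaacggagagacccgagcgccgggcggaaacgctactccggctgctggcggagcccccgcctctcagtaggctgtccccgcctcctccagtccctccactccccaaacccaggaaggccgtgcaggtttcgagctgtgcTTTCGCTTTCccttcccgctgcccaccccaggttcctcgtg
Psme3: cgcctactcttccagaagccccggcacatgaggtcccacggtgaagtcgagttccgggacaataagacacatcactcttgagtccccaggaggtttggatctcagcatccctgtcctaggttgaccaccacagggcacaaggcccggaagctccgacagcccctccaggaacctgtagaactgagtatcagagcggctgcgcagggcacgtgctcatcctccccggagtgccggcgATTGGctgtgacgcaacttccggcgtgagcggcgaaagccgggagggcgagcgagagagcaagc

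Both strands were searched, and the matches in Psmb9, Psme1 and Psme3 lie on the opposite strand, where they read as the reverse complement. Each of the 6 promoters shown held 1 match, so no matches overlapped there. Of the other catalytic subunits, Psmb10 had a promoter with no match to any of these motifs, and Psmb7 matched no promoter by symbol. Counted from the start site, the match lay at -47 to -39 in Psmb5, at -9 to -1 in Psmb6, at -97 to -89 in Psmb8 and at 10 to 19 in Psme1. Over all member promoters TGACNNNGC was present in 6 of 45 (13.3%), against 12.4% of 32851 promoters in the table. The core of the interferon response element was present in 5 (11.1%), against 3.44% of all promoters, and these were the promoters of Psmb3, Psmd4, Psmd9, Psme1 and Psmg4. TTCNNNGAA was found in 3 (6.67%, against 8.30%), and CCAAT in 15 (33.3%, against 37.4%). The member promoters had a median GC content of 57.3% and a median of 19 CpG dinucleotides, whereas all promoters had medians of 52.7% and 7. Matches are descriptions of letters, and binding was not measured.

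Levels are given as adjusted TPM. TPM is a length-corrected share of transcripts, so that levels can be compared between genes, while the method of the adjustment is not given in the sources used here. Read depth is unknown, and the precision of a value was read from the deposited lower and upper bounds, whose ratio had a median of 1.12 over the tested members and libraries (range 1.05 to 2.45). The sum over all genes ran from 561020 to 1453940, with the noncoding RNA Yam1 alone at 321581 in female B cell library 1 and 543238 in male T cell library 6. The members together summed to between 1948 (female B cell library 1) and 3059 (female T cell library 4), which was 0.456% to 0.592% of the protein-coding sum. Identity markers fitted the labels, with a sum over Cd79a, Cd79b, Ms4a1 and Pax5 of 2220 to 2643 in B and 0.896 to 4.91 in T libraries, and a sum over Cd3d, Cd3e, Cd4, Lck and Tcf7 of 9.76 to 14.1 in B and 1017 to 1194 in T libraries. Of the T cell markers, Lck made up most of the signal in B libraries, at 10.4 ± 1.68 (SD, n = 6), and the mean of Cd4 there was 0.00361. Markers of monocytes and macrophages (Lyz2, Cd68, Csf1r) summed to 8.95 to 13.1 in B and 1.06 to 4.55 in T libraries, and markers of dendritic cells (Flt3, Itgax, Xcr1, Siglech) to 3.13 to 8.93 in B and 0.153 to 0.755 in T libraries, with Siglech near 0 in both. Plasma cell markers (Sdc1, Prdm1) summed to 6.03 to 7.67 in B and 1.32 to 1.96 in T libraries, but went opposite ways. Sdc1 was higher in B (mean 6.15, against 0.00367 in T) and Prdm1 higher in T (mean 1.66, against 0.676 in B). A further plasma cell marker, Jchain, was not found by name. Erythroid markers summed to 0.912 to 198.2 in B and 2.45 to 43.8 in T libraries, and neutrophil and natural killer markers to at most 2.56 and 0.788. Myeloid cells also express immunoproteasome genes, and their part in the levels below was not tested. In bulk samples, fewer cells of a type and less RNA per cell cannot be told apart.

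Most proteasome genes had a higher level in T cells on the deposited scale. Psmg1, a chaperone that starts the assembly of the alpha ring, was 2.45-fold higher in T, and the PA28 genes Psme2 and Psme1 were 1.79-fold and 1.55-fold higher. The other PA28 gene, Psme3, and the PA200 gene Psme4 had higher levels in B cells, with T at 0.824 and 0.838 of the B mean. These directions of Psmg1, Psme1, Psme2, Psme3 and Psme4 were the same in all 5 ways of scaling the libraries described below. The catalytic subunits of both kinds lay between 1.16-fold and 1.27-fold higher in T, a direction that flipped for each of them when every library was set to an equal total.

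All 48 members past the filter on low values (at least 1 in at least 3 libraries) were at 2.08 or more in every library, so none had passed through a single cell type. Of these, 32 (66.7%) were called higher in T (limma, Benjamini-Hochberg adjusted p under 0.05 over 12520 genes), against a background of 41.6% of all tested genes. Only 2 (4.17%), Psme3 and Psme4, were called higher in B, against 31.4% of all tested genes, and 14 were not called. The libraries of the cell types did not overlap for 17 members higher in T (35.4%, against 29.7% of all genes) and for the same 2 members higher in B (4.17%, against 24.2%). The median difference of the members, B minus T on the log2(adjusted TPM + 1) scale, was -0.26, and that of all tested genes was -0.09.

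**Figure D1:**
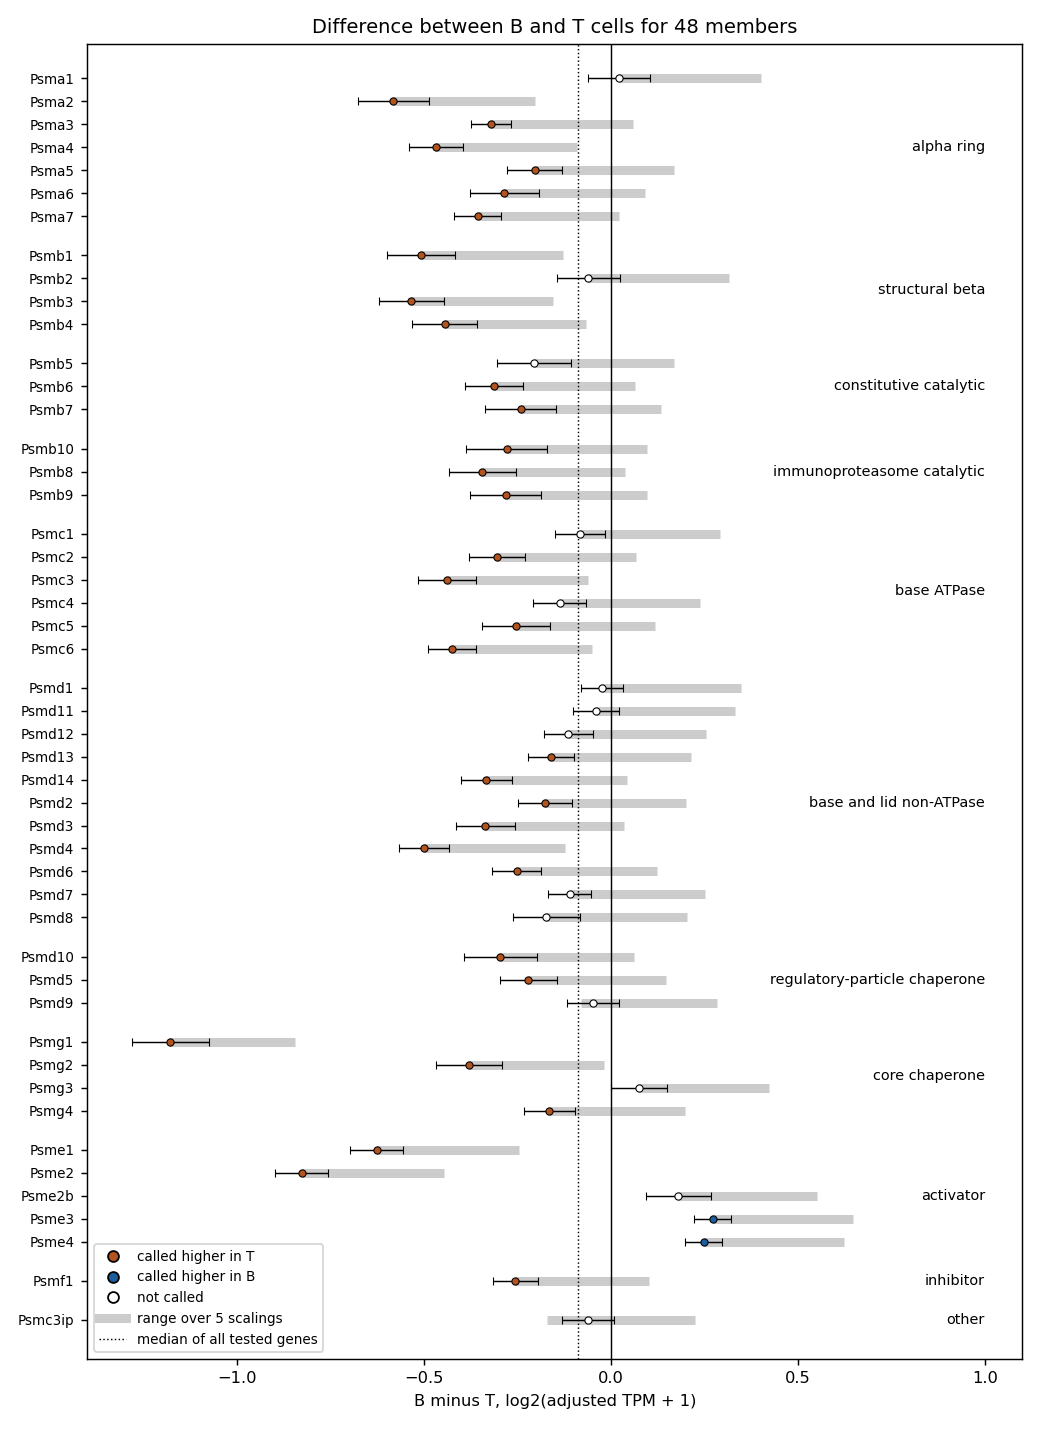
Difference between B and T cells for the 48 tested members, grouped by their part in the complex. Points give the log2 difference on the deposited scale with its standard error, filled where the gene was called, grey bars give the range over 5 scalings of the libraries, and the dotted line marks the median of all tested genes. Psmg1 (-1.18), Psme2 (-0.83) and Psme1 (-0.63) stay left of 0 under every scaling and Psme3 (0.27) and Psme4 (0.25) right of it, while the grey bars of 31 members cross 0.

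The zero point of these differences depended on how libraries were set against each other, whereas the place of the members among all genes hardly moved. Setting each library to an equal total moved the median of all genes from -0.09 to 0.25 and that of the members from -0.26 to 0.11, and then 4 members (Psme2b, Psme3, Psme4, Psmg3) were called higher in B, against 38.4% of all genes, and 1 (Psmg1) higher in T, against 15.9%. With this scaling 70.8% of all calls were higher in B, against 43.0% on the deposited scale. At an equal total Psmb5 and Psmb8 had standard errors of 0.194 and 0.210, against 0.099 and 0.089 on the deposited scale. Limma p-values at an equal total could reflect the spread of a single gene little. The erythroid marker Hbb-bs, whose cell types overlapped, had a limma adjusted p of 2.76e-20, against 0.241 on the deposited scale. All calls and limma adjusted p-values at an equal total carry this limit. Setting each library to an equal sum over protein-coding genes gave medians of 0.16 and 0.02, with 9 members called higher in B (45.4% of all genes), 8 higher in T (23.6% of all genes) and 65.8% of all calls higher in B. Median-ratio scaling gave 3 members higher in B and 23 higher in T, against 36.2% and 36.1% of all genes. Quantile normalisation gave 2 and 30 members, against 31.0% and 42.2% of all genes. The median of the members minus that of all genes was -0.17 on the deposited scale, -0.16 with median-ratio scaling, -0.15 with equal totals of either kind and -0.14 after quantile normalisation. In every one of the 5 scalings, 37 of the 48 members were below the median of all genes. By direction alone, 12 members were higher in T under every scaling, 5 were higher in B under every scaling, and 31 changed sign. The shares of all genes that kept or changed their sign were not computed. No member called on the deposited scale was called in the other direction under any other scaling.

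A few libraries set much of the spread within a cell type. Female B cell library 1 was the lowest of the 6 B libraries for 33 of 48 members and male B cell library 1 the highest for 27. Female T cell library 6 was the lowest of the 6 T libraries for 39 members and female T cell library 4 the highest for 29. The factors of median-ratio scaling, taken over all tested genes, were lowest and highest in the same libraries. They were 0.946 and 0.994 in these B libraries and 1.008 and 1.053 in these T libraries, so the order was not particular to the members. The matching counts over all genes were not computed. Leaving out each library in turn gave 25 to 36 members higher in T, with 25 without female B cell library 1 or without female T cell library 4, and 36 without female T cell library 6. Over all tested genes, 8717 to 9193 were called in these fits, both directions together. Of the 34 called members, 27 were called in all 12 such fits and none changed sign. The share of all called genes that held in every fit was not computed. The other called members were Psma5, Psmb7, Psmb10, Psmc5, Psmd2, Psmd13 and Psmg4, each of which was lost in at least 1 fit.

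Among the catalytic subunits, Psmb8 had the highest level in both cell types. Psmb8 (ENSMUSG00000024338.9, chromosome 17, 34197721 to 34201454, plus strand, GENCODE M21 on GRCm38) encodes beta5i. Its levels were 123.9, 151.0 and 138.9 in female B, 161.9, 128.6 and 141.3 in male B, 202.0, 164.4 and 150.2 in female T, and 195.5, 169.1 and 195.2 in male T libraries. The T libraries were mostly above the B libraries, and only the lowest T library, female T cell library 6, reached into the B range. Its counterpart Psmb5 (ENSMUSG00000022193.6, chromosome 14, 54614119 to 54618022, minus strand) encodes beta5 and had the lowest level of the 6. Psmb5 was measured at 25.3, 34.9 and 33.4 in female B, 35.4, 34.1 and 32.3 in male B, 44.9, 36.1 and 30.3 in female T, and 40.9, 35.4 and 39.2 in male T libraries. The groups overlapped, with the lowest value in female B cell library 1.

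Psmb8 differed between the cell types by -0.34 (SE 0.089, limma adjusted p = 0.00384), although the difference became 0.04 with libraries at an equal total. Psmb5 was not called at -0.21 (SE 0.099, limma adjusted p = 0.0767, and 0.17 at an equal total), but passed the threshold without female B cell library 2 or female T cell library 6. For beta1i, Psmb9 (ENSMUSG00000096727.1, chromosome 17, 34181987 to 34187764, minus strand) ran from 48.1 over a median of 55.2 to 75.1 in B and from 59.8 over 69.7 to 74.2 in T libraries. The highest B value, from female B cell library 2, was above all T values. For beta1, Psmb6 (ENSMUSG00000018286.6, chromosome 11, 70525367 to 70527858, plus strand) ran from 52.6 over 56.8 to 63.4 in B and from 59.8 over 74.8 to 80.6 in T libraries. Here only female T cell library 6 reached into the B range. Psmb9 was called at -0.28 (SE 0.096, limma adjusted p = 0.0181) and Psmb6 at -0.31 (SE 0.077, limma adjusted p = 0.00286), and both turned positive at an equal total (0.10 and 0.06).

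For beta2i, Psmb10 (ENSMUSG00000031897.8, chromosome 8, 105935735 to 105938444, minus strand) ran from 36.8 over 47.2 to 55.4 in B and from 43.3 over 57.6 to 65.6 in T libraries. For beta2, Psmb7 (ENSMUSG00000026750.5, chromosome 2, 38588036 to 38644087, minus strand) ran from 44.1 over 51.1 to 58.1 in B and from 49.3 over 58.6 to 70.6 in T libraries. The cell types overlapped for both genes. Psmb10 was called at -0.28 (SE 0.108, limma adjusted p = 0.0338) and Psmb7 at -0.24 (SE 0.095, limma adjusted p = 0.0368), with 0.10 and 0.14 at an equal total. Neither call held throughout, as Psmb10 was called in 5 and Psmb7 in 6 of the 12 fits that left out 1 library.

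Ordered by mean, the catalytic genes stood in the same order in both cell types. In B cells Psmb8 (140.9 ± 14.0, SD, n = 6) was followed by Psmb6 (57.7 ± 4.63), Psmb9 (57.04 ± 9.83), Psmb7 (51.0 ± 5.13), Psmb10 (47.0 ± 6.54) and Psmb5 (32.6 ± 3.73). In T cells the means were 179.4 ± 21.0 for Psmb8, 72.1 ± 7.52 for Psmb6, 68.9 ± 5.14 for Psmb9, 60.7 ± 8.20 for Psmb7, 57.3 ± 8.13 for Psmb10 and 37.8 ± 5.02 for Psmb5. The ranges over libraries were separate between Psmb8 and the next gene in both cell types, and between Psmb10 and Psmb5 in B cells. All other neighbours in this order overlapped. The 3 immunoproteasome subunits made up 63.4% ± 0.913 of the summed catalytic level in B and 64.2% ± 1.22 in T libraries, with a range of 62.5% to 66.5% over all libraries.

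**Figure D2:**
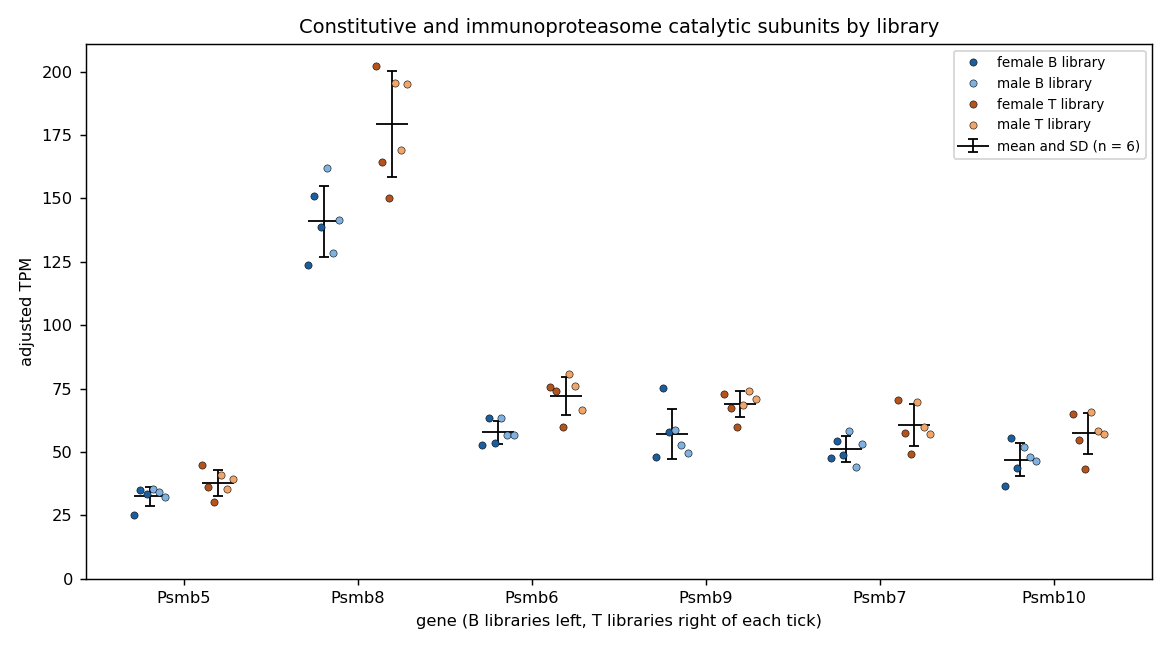
Adjusted TPM of the 6 catalytic subunit genes in each library, with each immunoproteasome gene to the right of the constitutive gene it replaces. Points are libraries, bars give the mean and SD of the 6 libraries of a cell type. Psmb8 lies between 123.9 and 202.0 in all libraries, and Psmb5 between 25.3 and 44.9.

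The ratio of each immunoproteasome subunit to its constitutive counterpart was computed within each library, since such a ratio does not change with the scaling between libraries. Psmb8 exceeded Psmb5 in every library, by 3.77 to 4.90 times in B and 4.50 to 4.98 times in T libraries. In contrast, Psmb9 and Psmb6 were at nearly equal levels, with ratios from 0.875 to 1.19 in B and from 0.851 to 1.06 in T libraries. Psmb10 and Psmb7 were likewise close, with 0.773 to 1.09 in B and 0.879 to 0.997 in T libraries. The ratio of Psmb8 to Psmb5 thus stood apart from the other ratios in both cell types, and differences between positions in the barrel were not tested.

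The mean ratio of Psmb8 to Psmb5 was 4.35 ± 0.380 in B and 4.76 ± 0.198 in T cells (SD, n = 6 each), a log2 difference of -0.13 (SE 0.057). The exact permutation test, two-sided over the 12 libraries, gave p = 0.0325 and an adjusted p of 0.0974 over the 3 pairs, which misses the threshold. It took all libraries as independent, although deviations of same-numbered female and male T libraries correlated, as given with the processing below. Over all settings run the adjusted exact permutation p was between 0.013, with the lower bound of Psmb8 and the upper bound of Psmb5, and 0.6, in females alone. Without female B cell library 1, which had the highest B ratio, the log2 difference was -0.17 and its adjusted p from the exact permutation test 0.039. The ratio of Psmb9 to Psmb6 was 0.985 ± 0.122 in B and 0.961 ± 0.0733 in T (log2 difference 0.03, SE 0.083, exact permutation adjusted p = 0.729), and that of Psmb10 to Psmb7 was 0.923 ± 0.112 in B and 0.944 ± 0.0415 in T (log2 difference -0.04, SE 0.076, exact permutation adjusted p = 0.729). The smallest p this test can give is 0.00216. The spread of all 3 ratios was larger among B than among T libraries.

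**Figure D3:**
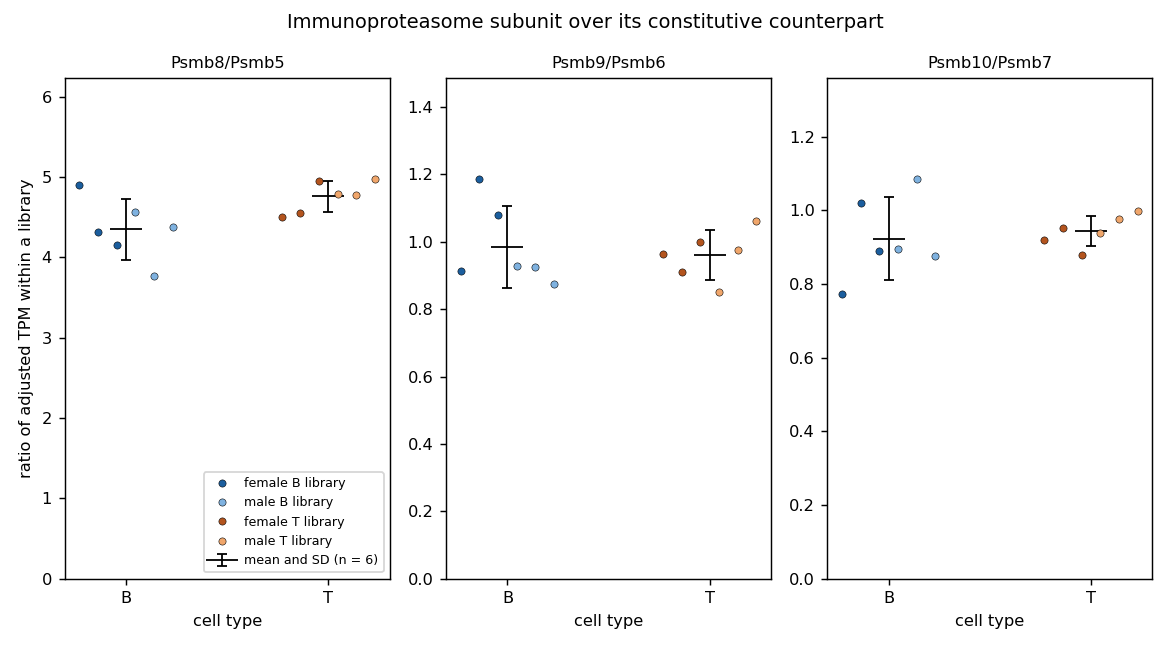
Ratio of each immunoproteasome subunit to the constitutive subunit it replaces, within each library. Points are libraries and bars give the mean and SD of 6 libraries, on axes that start at 0. The Psmb8 to Psmb5 ratio lies between 3.77 and 4.98, and the other ratios lie around 1.

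The alpha ring and the structural beta subunits, which form the body of the barrel, held the genes with the largest differences among the core subunits. Of the 7 alpha genes, 6 were called higher in T, against 41.6% of all tested genes. Psma1 was not called (61.2 ± 4.34 in B and 60.5 ± 7.31 in T, log2 difference 0.02, SE 0.083). Psma2, an alpha subunit (ENSMUSG00000015671.10, chromosome 13, 14613240 to 14674236, plus strand), had the largest alpha difference. It was at 91.8, 100.2 and 93.3 in female B, 114.8, 83.2 and 98.0 in male B, 163.7, 149.7 and 116.6 in female T, and 160.7, 139.7 and 143.6 in male T libraries. The cell types did not overlap, and the log2 difference was -0.58 (SE 0.095, limma adjusted p = 0.000114), staying below 0 in all 5 scalings (-0.20 at an equal total).

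Psma4 (log2 difference -0.47, and -0.09 at an equal total) was likewise below 0 in all 5 scalings. In contrast, Psma3 (-0.32), Psma5 (-0.20), Psma6 (-0.28) and Psma7 (-0.36) turned positive at an equal total. Of the structural beta genes, Psmb1, Psmb3 and Psmb4 were called higher in T, against 41.6% of all tested genes. Their log2 differences were -0.51, -0.53 and -0.44 and stayed below 0 in all 5 scalings. At an equal total these were -0.13, -0.16 and -0.07, and none was called. Psmb3 (ENSMUSG00000069744.7, chromosome 11, 97703399 to 97713500, plus strand) ran from 58.8 over a median of 64.8 to 74.9 in B and from 78.0 over 98.3 to 107.2 in T libraries. It did not overlap between the cell types (SE 0.087, limma adjusted p = 0.00012). Psmb2 stood apart within this class, at 46.9 ± 6.75 in B and 48.7 ± 3.94 in T cells (log2 difference -0.06, SE 0.083, limma adjusted p = 0.528, and 0.32 at an equal total). Subunits of one ring, which are needed in equal number in the finished barrel, thus differed in transcript level within a library, as Psma5 was at 31.7 ± 1.86 and Psma2 at 96.9 ± 10.6 in B cells.

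The genes of the regulatory particle had median log2 differences of -0.28 (base ATPases) and -0.17 (other base and lid subunits), against -0.32 for the alpha ring and -0.48 for the structural beta subunits. Of the 6 base ATPases, which unfold substrates, 4 were called higher in T, against 41.6% of all tested genes. These were Psmc2, Psmc3, Psmc5 and Psmc6, whereas Psmc1 and Psmc4 were not called. Psmc3 (ENSMUSG00000002102.10, chromosome 2, 91054009 to 91066369, plus strand) ran from 46.5 over 54.5 to 59.0 in B and from 61.7 over 74.2 to 82.2 in T libraries. The cell types did not overlap, and the log2 difference was -0.44 (SE 0.077, limma adjusted p = 0.000212), below 0 in all 5 scalings as was that of Psmc6 (-0.43). At an equal total Psmc3 stood at -0.06 and Psmc6 at -0.05, and neither was called. The differences of Psmc2 (-0.30) and Psmc5 (-0.25) turned positive at an equal total.

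Of the 11 other base and lid subunits, 6 were called higher in T, against 41.6% of all tested genes, and 5 were not called. Their log2 differences ran from -0.50 to -0.02. The largest was that of Psmd4, the ubiquitin receptor of the base (ENSMUSG00000005625.10, chromosome 3, 95032694 to 95042614, minus strand). Psmd4 was at 53.4, 61.4 and 55.8 in female B, 57.5, 55.7 and 54.6 in male B, 86.4, 85.4 and 69.0 in female T, and 82.3, 85.1 and 74.1 in male T libraries. All T libraries were above all B libraries (log2 difference -0.50, SE 0.067, limma adjusted p = 2.14e-05). The sign held in all 5 scalings, with -0.12 and no call at an equal total (limma adjusted p = 0.619). The other 5 called genes of this class, Psmd2, Psmd3, Psmd6, Psmd13 and the lid deubiquitinase Psmd14, were between -0.34 and -0.16 and turned positive at an equal total. Psmd7, which pairs with Psmd14 in the lid, was not called, at 15.2 ± 0.897 in B and 16.5 ± 1.29 in T cells. The scaffold subunit Psmd1 was at 26.2 ± 1.31 in B and 26.6 ± 1.69 in T cells and was not called either.

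Within a library, the mean level of the 11 alpha and structural beta genes exceeded that of the 17 ATPase and other base and lid genes by 1.74 ± 0.0491 times in B and 1.89 ± 0.0527 times in T cells (SD, n = 6 each). The highest B value of this ratio was 1.83, in male B cell library 1, and the lowest T value was also 1.83, so the ranges overlapped slightly. The core mean itself was 64.6 ± 4.92 in B and 84.6 ± 7.76 in T cells on the deposited scale. The chaperones that build the base, Psmd5 (-0.22) and Psmd10 (-0.30), were called higher in T but turned positive at an equal total, and Psmd9 (-0.05) was not called. Psmd10 encodes gankyrin and ran from 9.85 over 12.99 to 15.3 in B and from 12.95 over 15.7 to 18.2 in T libraries, with overlap (SE 0.098, limma adjusted p = 0.0157).

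On the deposited scale the activators were the only class with members called in both directions, 2 higher in T and 2 higher in B. Of all tested genes, 41.6% were called higher in T and 31.4% higher in B. Psme1 and Psme2 encode the alpha and beta subunits of the PA28 ring that interferon gamma induces, and lie close to each other on chromosome 14 (Psme1, ENSMUSG00000022216.11, 55578123 to 55581529, plus strand, and Psme2, ENSMUSG00000079197.5, 55587441 to 55591113, minus strand). Psme2 was at 93.1, 103.1 and 101.2 in female B, 103.9, 93.2 and 102.5 in male B, 204.6, 172.7 and 155.7 in female T, and 186.0, 166.4 and 180.6 in male T libraries. All T libraries were far above all B libraries. Its log2 difference was -0.83 (SE 0.071, limma adjusted p = 2.78e-07), with -0.45 at an equal total, where the limma adjusted p was 0.0571. Psme1 was at 122.4, 147.7 and 134.7 in female B, 147.6, 134.1 and 131.4 in male B, 222.4, 218.9 and 182.1 in female T, and 203.0, 222.4 and 216.9 in male T libraries. It too was separate between the cell types, at -0.63 (SE 0.071, limma adjusted p = 4.29e-06), with -0.25 and a limma adjusted p of 0.330 at an equal total. Psme1 was the member with the highest mean level in T cells, and second to Psmb8 in B cells.

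Psme3 (ENSMUSG00000078652.4, chromosome 11, 101316213 to 101323537, plus strand) encodes PA28 gamma, which forms a ring of its own in the nucleus and degrades some proteins without ubiquitin. Its levels were 37.4, 39.9 and 38.8 in female B, 42.4, 38.3 and 36.8 in male B, 32.7, 32.9 and 34.5 in female T, and 30.1, 29.7 and 32.5 in male T libraries. Here all B libraries were above all T libraries, by a log2 difference of 0.27 (SE 0.050, limma adjusted p = 0.000301) that rose to 0.65 at an equal total. Psme4 (ENSMUSG00000040850.12, chromosome 11, 30771726 to 30880361, plus strand) encodes PA200, known for degrading acetylated histones. It was at 37.8, 39.9 and 39.3 in female B, 37.4, 36.2 and 39.9 in male B, 32.7, 32.5 and 30.9 in female T, and 30.1, 35.0 and 32.2 in male T libraries. All B libraries were again above all T libraries (0.25, SE 0.050, limma adjusted p = 0.000671, and 0.62 at an equal total).

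The remaining activator gene, Psme2b (ENSMUSG00000078153.3, chromosome 11, 48945354 to 48946190, minus strand), is a copy of Psme2 that shared 99.4% of 794 aligned bases with it, so reads of both genes could be assigned to either. It was at 24.0 ± 1.93 in B and 21.2 ± 2.85 in T cells and was not called (0.18, SE 0.087, limma adjusted p = 0.0795), although it passed the threshold with the replicate block (limma adjusted p = 0.018) and was positive in all 5 scalings. The ratio of Psme2b to Psme2 was 0.242 ± 0.0243 in B and 0.120 ± 0.0178 in T cells. Added together, both genes stood at 116.7 to 130.6 in B and 178.5 to 227.5 in T libraries, so the cell types were separate also for the sum.

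**Figure D4:**
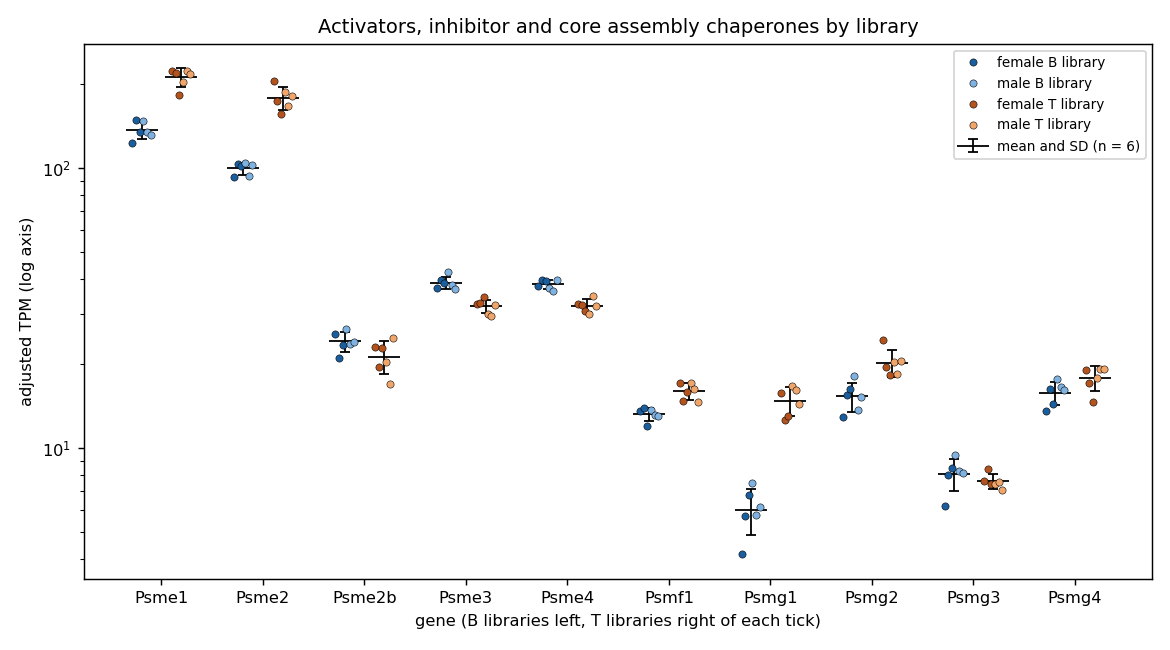
Adjusted TPM of the activators, the inhibitor Psmf1 and the core assembly chaperones in each library, on a log axis. Points are libraries and bars give the mean and SD of 6 libraries of a cell type. On the deposited scale Psme1, Psme2, Psmf1, Psmg1 and Psmg2 are separate with T higher, and Psme3 and Psme4 are separate with B higher, of which Psmf1 changes sign when libraries are set to an equal total.

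The core is assembled with the help of chaperones that act in pairs, Psmg1 with Psmg2 and Psmg3 with Psmg4. Psmg1 (ENSMUSG00000022913.9, chromosome 16, 95979933 to 95990960, minus strand) had the largest difference of all members. Its levels were 4.17, 5.70 and 6.82 in female B, 7.47, 5.74 and 6.18 in male B, 15.8, 12.6 and 12.97 in female T, and 16.7, 16.2 and 14.4 in male T libraries. The lowest T library was well above the highest B library. The log2 difference was -1.18 (SE 0.103, limma adjusted p = 3.17e-07), and Psmg1 was called in all 5 scalings, with -0.84 at an equal total and a highest limma adjusted p of 3.56e-05.

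Its partner Psmg2 ran from 12.9 over 15.3 to 18.1 in B and from 18.2 over 19.8 to 24.4 in T libraries. The groups only just failed to touch, and the log2 difference was -0.38 (SE 0.088, limma adjusted p = 0.00185), falling to -0.02 at an equal total. Psmg3 was at 8.10 ± 1.05 in B and 7.59 ± 0.449 in T cells and was not called (0.08, SE 0.074). Psmg4 was called at -0.17 (SE 0.068, limma adjusted p = 0.0438), though in 4 of the 12 fits that left out 1 library, not with the replicate block (limma adjusted p = 0.0685), and with 0.20 at an equal total. The inhibitor Psmf1, which binds the core, was at 13.2 ± 0.674 in B and 16.0 ± 1.12 in T cells and was called at -0.26 (SE 0.060, limma adjusted p = 0.0019), with 0.10 at an equal total.

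Within each library, the balance between activators and between chaperones separated the cell types without regard to scaling. The sum of Psme1 and Psme2 was 6.06 ± 0.225 times the level of Psme3 in B and 12.2 ± 1.26 times in T cells (SD, n = 6 each), with ranges of 5.77 to 6.35 and 9.78 to 13.1. The lowest T value came from female T cell library 6. The ratio of Psme1 to Psme4 was 3.55 ± 0.279 in B and 6.55 ± 0.356 in T cells. Set against the mean level of the 11 alpha and structural beta genes, Psme3 was at 60.4% ± 2.95 in B and 38.2% ± 5.03 in T, and Psme4 at 59.7% ± 4.37 in B and 38.4% ± 4.19 in T. Psme2 was at 154.4% ± 5.54 in B and 210.0% ± 4.59 in T.

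The ratio of Psmg1 to Psmg2 was 0.391 ± 0.0388 in B and 0.736 ± 0.0958 in T cells, with ranges of 0.322 to 0.419 and 0.647 to 0.879. Psmg1 was at 9.26% ± 1.26 of the core mean in B and 17.5% ± 1.81 in T. These ratios were chosen after the values were known and are given with no test.

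**Figure D5:**
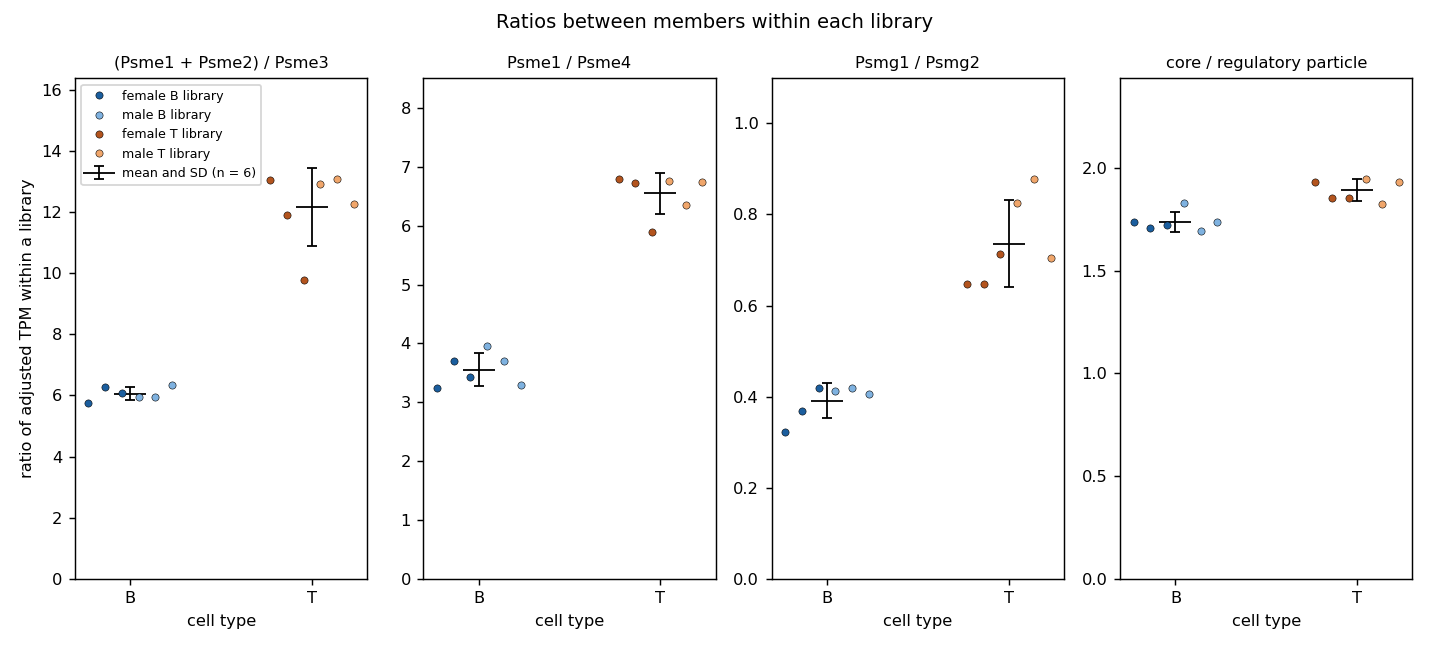
Ratios between members within each library, with the core as the mean of 11 alpha and structural beta genes and the regulatory particle as the mean of 17 ATPase, base and lid genes. Points are libraries and bars give the mean and SD of 6 libraries. The activator and chaperone ratios are separate between B and T libraries, and the core ratio moves from 1.74 to 1.89.

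Tissue-restricted core subunits were close to 0 in these cells. The testis subunit Psma8 reached at most 0.0825 and Psmb11, the thymic cortical epithelium's catalytic subunit, at most 0.0314 in any library. Both were under the filter and not tested. Psmc3ip, the gene that shares only its name, was at 2.52 ± 0.311 in B and 2.67 ± 0.147 in T cells and was not called.

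Near-identical copies and overlapping genes limit how surely some values belong to their gene. Of the 50 members, 16 matched a transcript of another gene with at least 95% identity over 200 bases, overlapping neighbours included, and 11 of the 23 genes so found reached a level of 1 in some library. Of these 23 genes, 19 had a level in the deposited table. The copies with the highest known levels besides Psme2b and overlapping neighbours were A730017L22Rik for Psmd11 (median level 4.17) and Gm6542 for Psma4 (median level 2.25). Psmb5 has a near-full-length copy, the pseudogene Gm3375, with 98.9% identity over 796 of 899 bases. Its level is unknown, since it is absent from the deposited table, so its effect on Psmb5 and on the Psmb8 to Psmb5 ratio was not tested. Psmb9 shares 212 bases with Tap1 on the opposite strand, and Psmb7 shares 405 bases with Nek6. Psmb8 shares 498 bases, 14.7% of its exons, with the antisense gene Gm20496. The libraries were strand-specific, but whether strand was used in the quantification is not given in the sources used here, so reads in these stretches are uncertain.

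No proteasome gene was called between the sexes. In B cells 0 of 48 members were called (against 0.144% of all tested genes), in T cells 0 (against 0.104%), and for the difference between the sex effects 0 (against 0.0%), all by limma. At an unadjusted p under 0.05 the counts were 0, 0 and 0 members, against 373, 319 and 295 of all genes. Female minus male, the members' log2 differences ran from -0.20 (Psmg1) to 0.15 (Psmb9) in B and from -0.19 (Psmg1) to 0.11 (Psme3) in T cells. The sexes did not overlap for 1 member in B (2.08%, against 7.2% of all genes), the lid gene Psmd7, at 13.9 to 15.3 in female and 15.7 to 16.2 in male libraries. They did not overlap for 1 member in T (2.08%, against 8.49%), Psme3, which was higher in female libraries. With 3 libraries a group, small differences could not be detected. The column headers carried a further number of unstated meaning, which split the libraries by sex within each cell type. Sex and this number cannot be told apart. It was shared by female B and male T libraries, so the difference between the sex effects cannot be told apart from it either.

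The catalytic ratios were compared between the sexes by an exact permutation test, whose smallest two-sided p with 3 libraries against 3 is 0.1, so this test could call no difference. Psmb8 to Psmb5 was 4.46 in female and 4.24 in male B cells (exact permutation p = 0.6), and 4.67 in female and 4.85 in male T cells (exact permutation p = 0.3). The ratio of Psmb9 to Psmb6 was 1.06 in female and 0.909 in male B cells (exact permutation p = 0.3), with the higher female value carried by libraries 2 and 3. Over the 6 comparisons of 3 ratios in 2 cell types, the unadjusted exact permutation p ran from 0.2 to 1. With same-numbered T libraries paired, the male ratio was higher in 3 of 3 pairs for Psmb8 to Psmb5 (female minus male -0.054 on the log2 scale, SE 0.024) and for Psmb10 to Psmb7 (-0.082, SE 0.049), and in 2 of 3 for Psmb9 to Psmb6. The paired exact permutation test gave p = 0.25 for Psmb8 to Psmb5 and for Psmb10 to Psmb7, the smallest it can give with 3 pairs.

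Other genes of the ubiquitin-proteasome pathway, in a list of 19, had 10 called higher in T (52.6%, against 41.6% of all tested genes), 4 higher in B (21.1%, against 31.4%) and 5 not called, with a median log2 difference of -0.18. The core maturation factor Pomp, which helps the catalytic subunits to enter the barrel, was at 54.8 ± 6.67 in B and 65.7 ± 3.40 in T cells (-0.27, limma adjusted p = 0.00761), with 0.11 at an equal total. Nfe2l1, the transcription factor that raises proteasome genes when proteasome activity falls, was called higher in B. It was at 26.4 ± 1.33 in B and 16.7 ± 0.513 in T cells, and the cell types did not overlap (0.63, SE 0.049, limma adjusted p = 9.78e-08, and 1.00 at an equal total). On the deposited scale 43 of the 48 members had the opposite sign from Nfe2l1, whereas at an equal total 36 had the same sign. The median of all tested genes moved likewise, from -0.09 to 0.25, and the share of all genes with either sign was not computed. A relation between Nfe2l1 and the members was not tested. Its processing protease Ddi2 was also called higher in B (0.27), as were Ubqln1 (0.24) and AI314180 (0.36), while Ngly1, the enzyme that strips glycans from the same factor, was higher in T (20.1 ± 1.24 in B and 43.0 ± 2.29 in T, -1.06, SE 0.055, limma adjusted p = 1.57e-09, and -0.69 at an equal total). Ubiquitin from Ubb was called at -0.38 but stood at 0.0005 at an equal total.

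Among 8 genes of interferon signalling and peptide loading, 6 were called higher in T (75%, against 41.6% of all tested genes), none higher in B, and Tap1 and Tapbp were not called (median log2 difference -0.75). The largest difference was that of Nlrc5, a transactivator of MHC class I genes (30.5 ± 4.43 in B and 75.3 ± 7.69 in T, -1.28, limma adjusted p = 4.11e-08). It stayed below 0 at an equal total (-0.91), as did Irf1, Tap2, Erap1 and B2m. Of these 4, only Erap1 was called there (limma adjusted p = 0.0427, against 0.0997 for Irf1, 0.398 for Tap2 and 0.269 for B2m). Tap1, the peptide transporter subunit that lies head to head with Psmb9, was at 100.3 ± 14.2 in B and 108.1 ± 10.9 in T cells (-0.11, SE 0.098, limma adjusted p = 0.308). The 3 immunoproteasome subunits differed by -0.34 to -0.28 on the same scale and changed sign at an equal total, and each of the 6 called genes of this list differed by more.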

How the data were processed

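RNA of 12 libraries had been freed of ribosomal RNA, made into stranded libraries and spiked with ERCC transcripts, per the labels. Some label fields name genomic DNA, but the series is RNA sequencing. The signal deposited by the authors is an adjusted TPM with a lower and an upper bound per gene and library. Their processing notes name Trim Galore, FastQC, STAR and mm10, while the quantifier, the adjustment and the level of the bounds are not given in the sources used here. The values are not counts, and read depth is unknown. Gene identifiers were matched to GENCODE M21 (40254 of 41128).

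Genes at 1 or more in at least 3 libraries (12520) were tested with limma 3.58.1 in R 4.3.3 on log2(adjusted TPM + 1), with a mean-variance trend, 1 coefficient per group and Benjamini-Hochberg adjustment, a gene being called at an adjusted p under 0.05. The pseudocount of 1 understates changes of low genes. Ratios of catalytic pairs were compared by an exact permutation test in scipy 1.17.1, and copies were sought with blastn 2.17.0+. Fits were tested on simulated data. The catalytic genes were described in full, with the called gene of the largest difference in each direction per class. Members and lists were chosen with earlier results of these data known. Some genes of the lists are not reported here. Alternatives covered scaling, pseudocount, filter, trend, bounds, left-out libraries and a replicate block. Deviations of same-numbered female and male libraries correlated in T cells (r = 0.721, 0.548 and 0.521) and not in B cells (r = -0.169, -0.038 and -0.337). Numbers were therefore taken to pair the T libraries in the paired test of the catalytic ratios. The replicate block of the limma fits, in contrast, used the numbers of the B libraries as well as those of the T libraries.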

Additional observations from a re-analysis of the deposited data

How the results depend on the processing

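With libraries set to a total of 1000000, 4 members were called higher in B and 1 higher in T, and the log2 differences of Psmb10 (0.10), Psmb5 (0.17), Psmb6 (0.065), Psmb7 (0.14), Psmb8 (0.037), Psmb9 (0.10), Psmd10 (0.063) and Psmf1 (0.10) changed sign. With libraries at the mean protein-coding total, a setting added after the data were seen, the counts were 9 and 8 members, and Psmb10 (0.0011), Psmb5 (0.072), Psmb7 (0.039) and Psmf1 (0.011) changed sign. Without a filter on low values 24591 of 41128 genes were called, as genes near 0 entered, 12247 of them higher in B and 12344 higher in T. Among the members 3 were then higher in B and 28 higher in T. The log2 ratio of Psmb8 to Psmb5 passed the threshold with the upper bounds of both genes (-0.14) and with the lower bound of the first and the upper of the second (-0.15). Leaving out 1 library gave -0.17 to -0.094 for this ratio, -0.025 to 0.063 for Psmb9 to Psmb6, and -0.088 to 0.010 for Psmb10 to Psmb7, and in males alone Psmb9 to Psmb6 was -0.078. With the replicate block, 3 members were called higher in B and 31 higher in T, against 4005 and 5307 of all 12520 tested genes. Psme2b was gained and Psmg4 lost, and the block changed no other call of a member. Pairing the T libraries for the sex difference of the catalytic ratios, added after the data were seen, called none. The cause of these changes was not tested. Sex counts of the members were 0 in every setting run. Read depth is unknown, so the bounds limit the precision.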

Other observations

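Peptides released by the proteasome are trimmed or destroyed by cytosolic peptidases, and a list of 9 of these was looked up after the data had been seen. On the deposited scale 4 were called higher in T (Tpp2, Lta4h, Lap3, Npepps), 4 higher in B (Nln, Prep, Thop1, Blmh) and Dpp3 was not called. These were 44.4% in either direction, against 41.6% of all tested genes higher in T and 31.4% higher in B. Lta4h, a leukotriene hydrolase that is also an aminopeptidase, was at 24.2 ± 1.58 in B and 58.3 ± 5.09 in T cells (-1.23, limma adjusted p = 2.82e-09), and -0.86 with libraries at an equal total. Tpp2, tripeptidyl peptidase II, was at 45.4 ± 1.91 in B and 73.8 ± 4.31 in T cells (-0.69, limma adjusted p = 4.33e-08), and -0.31 at an equal total. In the other direction, the oligopeptidases Nln (7.63 ± 0.328 in B and 4.26 ± 0.123 in T, 0.71, limma adjusted p = 3.62e-08) and Prep (20.3 ± 1.13 and 12.6 ± 0.760, 0.65, limma adjusted p = 3.37e-07) were higher in B, with 1.06 and 1.02 at an equal total. Lap3 and Npepps turned positive there (0.03 and 0.21).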
